A study of Homo sapiens with 8 samples.

Results

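Genes of 4 growth factor receptor families, the epidermal growth factor (EGF) receptors, the platelet-derived growth factor (PDGF) receptors, MET and AXL, were followed in SH-SY5Y, an established line of human neuroblastoma. They are 10 genes chosen by symbol, out of 47591 genes in the table of normalized counts. Of these, 7 are receptors (EGFR, ERBB2, ERBB3, PDGFRA, PDGFRB, MET and AXL) and 3 are ligands (HBEGF, NRG1 and PDGFC). All 10 symbols were found, each in 1 row.

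RNA-seq of polyadenylated RNA was made from 3 lines of these cells. G2 (3 libraries) carries a CRISPR/Cas9 edit aimed at PRPF40B, a splicing factor, and was selected with puromycin and grown up from individual colonies. SCR (3 libraries) received the same machinery with a scrambled control guide, and G2 and SCR were kept in puromycin. WT (2 libraries) was not genetically modified, and no puromycin is stated for it. G2 is a single edited line, so a difference caused by the guide and a difference between lines cannot be told apart here. The titles call the libraries biological replicates, but whether they came from separate cultures is not given in the sources used here, so the p-values measure the spread between these libraries only.

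These receptors are tyrosine kinases of the cell surface. A ligand brings receptors together as pairs, the receptors phosphorylate each other, and adaptor proteins carry the signal to the RAS-ERK and PI3K pathways. HB-EGF is made as a membrane protein, released by surface proteases, and binds EGFR. Neuregulin 1, the product of NRG1, binds ERBB3 and ERBB4, with ERBB2 as the partner that has no ligand of its own. PDGF-C binds PDGFRA, hepatocyte growth factor (HGF) binds MET, and GAS6 and protein S bind AXL, MERTK and TYRO3.

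The values are normalized counts, in which counts were made comparable between libraries by size factors, and they are not scaled to gene length. Recovered library totals ran from 59804395 to 81080747. The limma test was run on log2(normalized count + 1) and covered the 18947 genes whose mean over the libraries reached 10. For weakly expressed genes the added 1 and the scatter of small counts bear on the fitted change. It can then be smaller or larger than the ratio of the means. A difference of 1.5-fold or more whose unadjusted p did not exceed 0.05 was called. The targeted gene, PRPF40B, stood at 840, 841 and 918 normalized counts in G2, at 1686, 1672 and 1669 in SCR and at 1972 and 1668 in WT, so every G2 library was below every control library. The WT libraries stood apart from the others in that ribosomal RNA genes held 4.96% and 4.75% of their normalized counts, against 0.384% to 0.587% elsewhere. The part this plays in the comparisons with WT was not tested. In bulk RNA, fewer cells that express a gene and less RNA of it per cell cannot be told apart.

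Before the values, the promoters of a few members are shown, so that a ligand that rose in G2 (HBEGF) can be set beside its receptor that was not called (EGFR), a receptor that differed between the controls (ERBB2) and a receptor with almost no reads (MET). They are RefSeq windows of GRCh38.p14, from 250 bases before to 50 bases after the annotated start, written 5′ to 3′ along the gene. HBEGF lies at chr5:140346554-140346853 on the minus strand. The windows of EGFR (chr7:55018767-55019066), ERBB2 (chr17:39687844-39688143) and MET (chr7:116671946-116672245) are on the plus strand. Capitals mark matches on either strand to the motifs searched, which here were the SP1 motif GGGCGG in HBEGF, EGFR and MET, and the AP-1 motif TGANTCA in ERBB2.
HBEGF: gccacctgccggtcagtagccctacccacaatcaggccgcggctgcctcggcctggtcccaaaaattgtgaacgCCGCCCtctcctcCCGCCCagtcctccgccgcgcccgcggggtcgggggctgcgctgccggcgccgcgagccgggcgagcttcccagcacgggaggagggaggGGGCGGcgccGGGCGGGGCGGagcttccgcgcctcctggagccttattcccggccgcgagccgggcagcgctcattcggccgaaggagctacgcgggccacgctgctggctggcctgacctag
EGFR: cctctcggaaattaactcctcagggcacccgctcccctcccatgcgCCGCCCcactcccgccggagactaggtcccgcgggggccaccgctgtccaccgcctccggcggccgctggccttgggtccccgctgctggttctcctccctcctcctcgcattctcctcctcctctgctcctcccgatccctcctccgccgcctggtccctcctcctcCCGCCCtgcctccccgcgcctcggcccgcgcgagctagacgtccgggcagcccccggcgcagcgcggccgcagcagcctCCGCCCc
ERBB2: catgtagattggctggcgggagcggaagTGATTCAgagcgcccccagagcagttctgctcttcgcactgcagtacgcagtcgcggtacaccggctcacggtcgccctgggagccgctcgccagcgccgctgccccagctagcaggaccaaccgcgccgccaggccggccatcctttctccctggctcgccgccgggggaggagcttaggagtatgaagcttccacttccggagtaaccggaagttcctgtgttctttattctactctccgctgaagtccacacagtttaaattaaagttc
MET: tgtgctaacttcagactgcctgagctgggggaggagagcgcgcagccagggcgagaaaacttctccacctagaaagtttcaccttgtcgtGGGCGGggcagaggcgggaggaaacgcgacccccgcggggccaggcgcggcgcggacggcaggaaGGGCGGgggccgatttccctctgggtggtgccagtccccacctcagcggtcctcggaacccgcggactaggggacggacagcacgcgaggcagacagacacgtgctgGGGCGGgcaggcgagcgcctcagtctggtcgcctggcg

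The HBEGF window holds 5 matches to GGGCGG, of which a neighbouring pair overlap by a base, and the windows of EGFR and MET hold 3 each. This motif was found in 44.9% of the 34943 RefSeq windows of the same length, so its presence is common. The AP-1 motif, found in 7.72% of the windows, had 1 match in ERBB2 and none in the windows of HBEGF, EGFR and MET shown. These 4 windows held no match to GCGNGGGCG (EGR, 9.41% of all windows), GGAATG (TEAD, 14.0%), TGACGTCA (CRE, 1.84%), TATAAA (11.6%) or the CArG box (1.3%). A missing match says only that these letters are not in the window. The windows shown are rich in G and C, at 75.0% in HBEGF, 75.3% in EGFR, 60.7% in ERBB2 and 69.3% in MET. The median over all windows was 58.7%. EGFR had another window (chr7:55109589-55109888, not shown), with 2 AP-1, 1 TEAD and 2 TATAAA matches and 42.0% G and C. The windows of HBEGF and MET both held the SP1 motif, while MET was at 0 in all 3 G2 libraries and HBEGF was not. The windows were picked with the values known, and the part of the motif in either level was not tested.

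Among the members, the ligands NRG1, HBEGF and PDGFC were called higher in G2 against both controls, while the receptors EGFR, PDGFRA and PDGFRB stayed within 1.5-fold in both G2 comparisons. In G2/SCR, 8 of the 10 members passed the filter on low values, and 3 of them were called higher (HBEGF, PDGFC and NRG1), 1 lower (ERBB2) and 4 neither. Over all genes tested, 15.1% were called higher and 11.8% lower in this comparison. In G2/WT the same 3 ligands were called higher, none of the members lower and 5 neither, where 17.7% of all genes were called higher and 12.2% lower. G2/SCR and G2/WT share the G2 libraries and are given side by side, not as independent results. In SCR/WT, ERBB2 was called higher and 7 members were not called, against 10.7% of all genes called higher and 5.63% lower. For the 3 ligands every G2 library lay above all 5 control libraries, and for none of the members did every G2 library lie below them. Over all genes tested these shares were 22.8% and 19.7%.

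**Figure D1:**
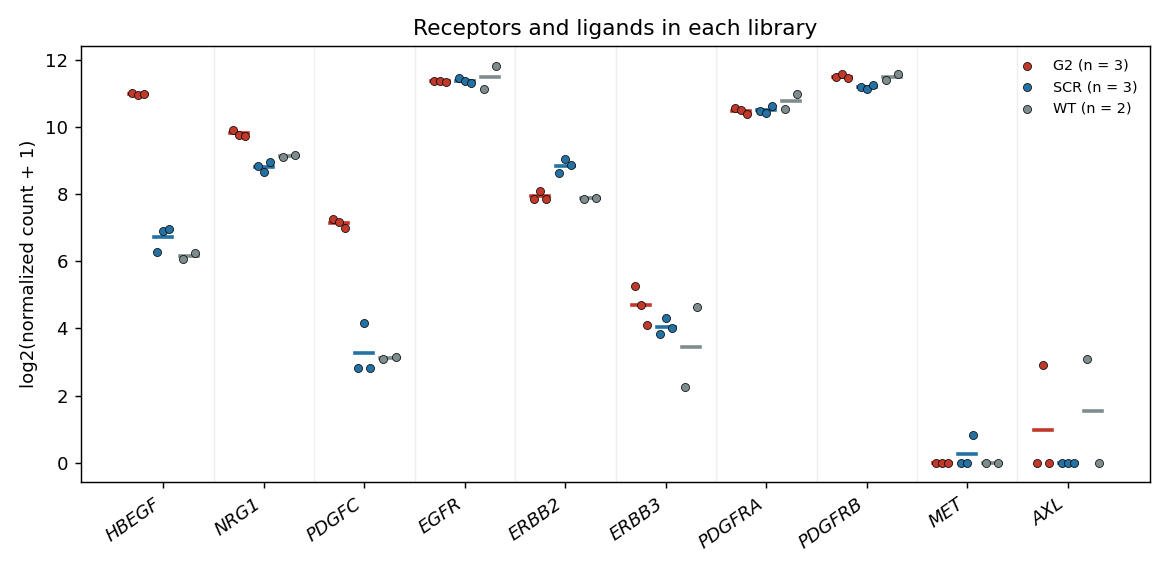
Log2(normalized count + 1) of the 10 genes in each library, with points for libraries, bars for the mean of a line and colours for G2, SCR and WT. The ligands HBEGF, NRG1 and PDGFC stand higher in all 3 G2 libraries than in the 5 controls, while the points of EGFR and PDGFRA mix and MET and AXL lie near 0.

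HBEGF encodes heparin-binding EGF-like growth factor, a ligand of EGFR and ERBB4. Its gene spans chr5:140332843-140349342. It stood at 2077, 1990 and 2050 normalized counts in G2, at 76.5, 119 and 125 in SCR and at 65.8 and 75.5 in WT. The G2 libraries lay far above all controls and close to each other, while SCR replicate 1 was near the WT libraries. The mean was 19.1 times higher in G2 than in SCR and 28.9 times higher than in WT. On the log2 scale the differences were 4.27 (95% interval 3.91 to 4.63, adjusted p = 1.12e-09, limma with Benjamini-Hochberg adjustment) against SCR and 4.83 against WT (95% interval 4.43 to 5.24, adjusted p = 1.09e-09). In SCR/WT the difference was 0.56 (95% interval 0.16 to 0.96), below the fold threshold. It passed that threshold without SCR replicate 1 (0.78) and without WT replicate 2 (0.66).

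NRG1 encodes neuregulin 1, a growth factor of the nervous system and of Schwann cells. Its gene spans chr8:31639222-32774046. It stood at 972, 875 and 859 normalized counts in G2, at 454, 408 and 501 in SCR and at 548 and 580 in WT. The 3 lines did not overlap, with G2 highest, WT next and SCR lowest. The log2 difference was 0.99 in G2/SCR (95% interval 0.78 to 1.2, adjusted p = 3.78e-06, limma with Benjamini-Hochberg adjustment). It was 0.68 in G2/WT (95% interval 0.44 to 0.91, adjusted p = 0.000223). The difference of -0.31 in SCR/WT (adjusted p = 0.0392 in the limma fit) was smaller than 1.5-fold and was not called.

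PDGFC encodes PDGF-C, a ligand that is cleaved outside the cell before it binds PDGFRA. Its gene spans chr4:156760454-156971799. It stood at 153, 142 and 127 normalized counts in G2, at 6.12, 16.9 and 6.05 in SCR and at 7.45 and 7.94 in WT. The controls were close to the floor, taken as 9 recovered counts or about 3 fragments in a library, and the WT libraries did not exceed it. The mean was 14.5 times higher in G2 than in SCR (log2 3.87, 95% interval 2.99 to 4.76, adjusted p = 7.3e-06, limma with Benjamini-Hochberg adjustment). Against the WT floor it was at least 14-fold higher (limma adjusted p = 1.4e-05). In SCR/WT, where WT was at the floor and the libraries of SCR spread around it, no linear fold is given, and the fitted log2 difference of 0.15 depends on the pseudocount.

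EGFR, the receptor of HB-EGF, spans chr7:54974225-55256604. It stood at 2635, 2685 and 2621 normalized counts in G2, at 2843, 2652 and 2548 in SCR and at 2268 and 3642 in WT. The G2 libraries lay within the range of the SCR libraries, and the WT libraries lay on either side of both. The log2 difference was -0.02 in G2/SCR, with a 95% interval from -0.30 to 0.27, so that a change of 1.5-fold in either direction lies outside the interval. The intervals of G2/WT (-0.44 to 0.20) and SCR/WT (-0.42 to 0.21) were wider. WT replicate 2 set their sign: without it the differences were 0.22 and 0.24, and neither passed 1.5-fold.

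ERBB2, the receptor that pairs with the other EGF receptors, spans chr17:39687914-39728658. It stood at 233, 275 and 231 normalized counts in G2, at 394, 527 and 472 in SCR and at 231 and 238 in WT. The SCR libraries lay above all others, and G2 and WT overlapped. The log2 difference was -0.91 in G2/SCR (95% interval -1.18 to -0.63, adjusted p = 8.89e-05, limma with Benjamini-Hochberg adjustment). It was 0.97 in SCR/WT (95% interval 0.66 to 1.28, adjusted p = 0.000302). In G2/WT it was 0.07 (95% interval -0.24 to 0.38). ERBB2 thus differed between the control lines by about as much as between G2 and SCR, and both differences rest on the SCR libraries. The annotated ends of PGAP3 and MIEN1 overlap the ends of ERBB2, and how reads in such stretches were counted is not given in the sources used here.

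ERBB3, a neuregulin receptor with a weak kinase, spans chr12:56080103-56103505. It stood at 37.6, 25.2 and 16.1 normalized counts in G2, at 13.3, 18.8 and 15.1 in SCR and at 3.72 and 23.8 in WT. The lines overlapped, and the WT libraries differed from each other by more than the means of the lines did. The log2 difference was 0.64 in G2/SCR (95% interval -0.66 to 1.95) and 1.26 in G2/WT (95% interval -0.20 to 2.71), neither of which was called. The differences from WT rest on few reads and change with WT replicate 2. Without it the G2/WT difference was 2.45 and the SCR/WT difference 1.81. Both are then set against 1 WT library at 3.72, below the WT floor of 10.1 normalized counts, and depend on the pseudocount.

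The PDGF receptors were among the higher members per exon length in all 3 lines. PDGFRA spans chr4:54229267-54298245 and stood at 1514, 1456 and 1345 normalized counts in G2, at 1422, 1366 and 1574 in SCR and at 1504 and 2026 in WT. G2 and SCR overlapped, with a log2 difference of -0.01 (95% interval -0.24 to 0.21). Against WT the differences were -0.28 for G2 and -0.27 for SCR, below 1.5-fold, and WT replicate 2 was the highest library.

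PDGFRB spans chr5:150113839-150155863 and stood at 2874, 3060 and 2801 normalized counts in G2, at 2339, 2265 and 2462 in SCR and at 2723 and 3099 in WT. All SCR libraries were below all others, and G2 and WT overlapped. The log2 difference was 0.31 in G2/SCR (95% interval 0.16 to 0.45, adjusted p = 0.00271, limma with Benjamini-Hochberg adjustment), too small for the fold threshold. In G2/WT it was 0.00, with a 95% interval from -0.16 to 0.17, and in SCR/WT it was -0.30 (adjusted p = 0.00888 in the limma fit).

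MET and AXL were not tested, because their means were below 10. MET, the receptor of HGF, spans chr7:116672196-116798385 and was at 0 in 7 libraries and at 0.756 in SCR replicate 3. AXL, a receptor of GAS6 and protein S, spans chr19:41219223-41261766. It was at 6.57 in G2 replicate 2, at 7.45 in WT replicate 1 and at 0 in the other 6 libraries. No library exceeded the floor of 9 recovered counts for either gene, which corresponds to 9.33 normalized counts in G2, 8.14 in SCR and 10.1 in WT. Transcripts of these genes below that level were not detectable at this depth.

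**Figure D2:**
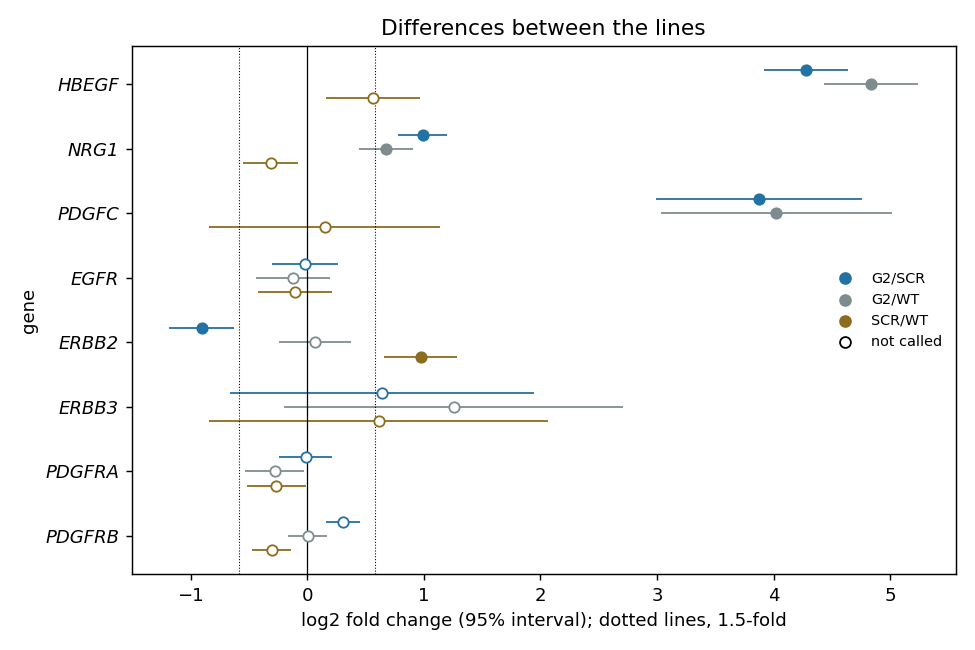
Log2 fold changes of the 8 tested genes in G2/SCR, G2/WT and SCR/WT, with bars for 95% intervals, filled points for called differences and dotted lines at 1.5-fold. HBEGF and PDGFC lie near 4 or above in both G2 comparisons, ERBB2 moves in opposite directions in G2/SCR and SCR/WT, and EGFR and the PDGF receptors lie inside the dotted lines.

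Levels can be compared between genes only per length, so normalized counts were divided by the length of the merged GENCODE exons of each gene. That length was 21.4 kb for NRG1, 15.9 kb for EGFR and 2.99 kb for HBEGF. Merged exons can be longer than the transcripts present, and the counts were made on another annotation, FAST DB. The order of the genes therefore depends on these lengths. In SCR, PDGFRB was highest at 330.1 ± 14.0 per kb (SD, n = 3), followed by EGFR at 168 ± 9.40 and PDGFRA at 152 ± 11.3, whose ranges overlapped. ERBB2 (45.0 ± 6.50) and HBEGF (35.7 ± 8.82) also overlapped, and NRG1 lay below them at 21.3 ± 2.17. PDGFC and ERBB3 were both under 2 per kb on average and could not be ordered.

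In G2, HBEGF was the highest member at 682 ± 14.9 per kb (SD, n = 3), above PDGFRB at 408 ± 18.7. EGFR at 166 ± 2.12 and PDGFRA at 151 ± 8.97 came next and did not overlap. NRG1 stood at 42.2 ± 2.87, and ERBB2 (23.9 ± 2.39) and PDGFC (23.5 ± 2.23) overlapped. HBEGF transcript thus stood above that of its receptor EGFR per exon length in G2 and below it in SCR. In WT the order was PDGFRB, EGFR and PDGFRA with overlapping ranges for the latter pair, then NRG1, HBEGF and ERBB2, of which HBEGF (23.6 ± 2.28, n = 2) and ERBB2 (22.7 ± 0.503, n = 2) overlapped.

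**Figure D3:**
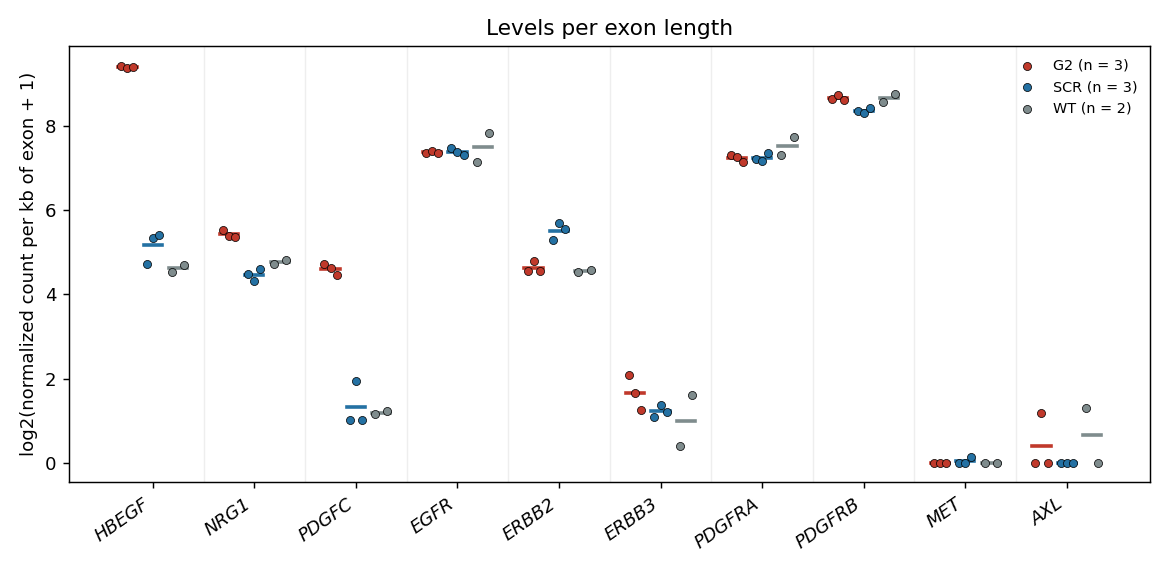
Log2(normalized count per kilobase of merged exon + 1) of the 10 genes in each library, with points for libraries and bars for the mean of a line. PDGFRB, EGFR and PDGFRA are high in all lines, while HBEGF is the highest of the 10 in G2 and close to ERBB2 in SCR and WT.

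The other genes of each family place these values. For the counts of calls in the lists below, the shares over all genes tested were 15.1% higher and 11.8% lower in G2/SCR. They were 17.7% and 12.2% in G2/WT, and 10.7% and 5.63% in SCR/WT. In the ErbB list, 15 genes were listed and 8 tested, of which 2 were called higher and 2 lower in G2/SCR, and 2 higher and 1 lower in G2/WT. The list medians of the log2 differences were 0.47 and 0.10, against -0.01 and 0.00 over all genes tested. The ligands EGF, AREG, EREG and BTC were at 0 in all 8 libraries and EPGN reached at most 1.02, so HBEGF, TGFA, NRG1, NRG2 and NRG3 were the ErbB ligands that could be compared. NRG4, at 11.3, 0 and 2.15 in G2 and 0 in the controls, was not tested. TGFA stood between 18.1 and 58.6 normalized counts and was not called. NRG3, another neuregulin, stood at 32.0, 58.0 and 20.4 in G2, against 64.3, 72.3 and 103 in SCR and 70.8 and 103 in WT. It fell in both comparisons, with log2 differences of -1.19 (adjusted p = 0.0135 by limma with Benjamini-Hochberg adjustment) and -1.32 (adjusted p = 0.0132). Without WT replicate 2 the second was -1.05 and not called. ERBB4, the other neuregulin receptor, did not exceed 9.07 in any library and was not tested.

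In the PDGF list, 4 of the 6 tested genes were called higher in each G2 comparison and none lower, and the called genes were ligands or the receptor-like gene PDGFRL, not the receptors. PDGFRL, which encodes a protein similar to the outer part of PDGFRB, stood at 228, 175 and 228 normalized counts in G2, at 18.4, 21.6 and 23.4 in SCR and at 36.0 and 26.8 in WT. PDGFD, a ligand of PDGFRB, stood at 880, 781 and 971 in G2, at 293, 320 and 310 in SCR and at 418 and 554 in WT. PDGFA, a ligand of PDGFRA, stood at 34.8, 40.5 and 48.4 in G2, at 4.08, 9.38 and 5.29 in SCR and at 7.45 and 0 in WT, so the controls of PDGFA were near the floor. The G2 libraries lay above all controls for these genes. The log2 differences in G2/SCR were 3.25 for PDGFRL, 1.5 for PDGFD and 2.60 for PDGFA (adjusted p = 2.35e-07, 6.15e-07 and 0.013, limma with Benjamini-Hochberg adjustment). In G2/WT they were 2.71 for PDGFRL and 0.86 for PDGFD, and PDGFA was at least 4.1-fold higher against the WT floor. The list medians were 2.05 against SCR and 1.78 against WT, the latter 1.45 with genes at the WT floor set to their bound.

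The ligand of MET showed the largest difference of the genes named here, in cells with almost no MET reads. HGF stood at 7227, 7031 and 7030 normalized counts in G2, at 193, 169 and 166 in SCR and at 6.21 and 2.98 in WT. The 3 lines did not overlap. The G2 mean was 40.4 times the SCR mean (log2 5.33, adjusted p = 3.07e-10 by limma with Benjamini-Hochberg adjustment). Against the WT floor G2 was at least 706-fold and SCR at least 17.5-fold higher. MST1R, the relative of MET that binds MST1, stood at 19.8, 24.1 and 19.3 in G2, at 55.1, 68.5 and 55.9 in SCR and at 44.7 and 32.8 in WT. It fell in both G2 comparisons (log2 -1.46 and -0.84, limma adjusted p = 0.000785 and 0.0359). The second call was lost without WT replicate 1 (-0.62), with only the 2 lines compared in the fit (-0.84, limma adjusted p = 0.0924) and with the library number as a replicate block (-0.80). Of the 6 tested genes of this list, 1 was called higher and 4 lower in G2/SCR, and 1 higher and 1 lower in G2/WT, while 4 were higher in SCR/WT. The list medians were -1.09 and -0.02.

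AXL was near 0, but its relatives were not. MERTK stood at 692, 672 and 708 normalized counts in G2, at 347, 338 and 417 in SCR and at 297 and 275 in WT. TYRO3 stood between 935 and 1385 in all libraries and was not called. Of the ligands, PROS1, which encodes protein S, stood at 3811, 3829 and 3824 in G2 against 1363 to 1602 in the controls. GAS6 moved the other way, at 629, 758 and 731 in G2 against 1333 to 1564 in the controls. For MERTK, PROS1 and GAS6 the G2 libraries did not overlap the controls. The log2 differences in G2/SCR were 0.92 for MERTK, 1.43 for PROS1 and -1.06 for GAS6 (adjusted p = 1.31e-05, 3.3e-09 and 1.04e-06, limma with Benjamini-Hochberg adjustment). Of the 4 tested genes of the list, 2 were called higher and 1 lower in each G2 comparison, with medians of 0.69 and 0.66.

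Among 11 genes for the shedding and activation of ligands, all tested, 6 were called higher in each G2 comparison and none lower, with medians of 0.61 and 0.60. In SCR/WT 2 of them were called higher and 2 lower. ADAM9, a surface protease able to shed HB-EGF, stood at 8385, 8103 and 7829 normalized counts in G2, at 1287, 1434 and 1407 in SCR and at 1834 and 2403 in WT. RHBDF1, a regulator of ADAM17 maturation, stood at 608, 608 and 750 in G2, between 74.1 and 80.1 in SCR and at 37.2 and 25.8 in WT. PLAT, which encodes tissue plasminogen activator, a protease that cleaves PDGF-C, stood at 4884, 5322 and 5199 in G2, between 542 and 590.3 in SCR and at 435 and 445 in WT. FURIN, a protease of the secretory pathway, rose by 1.12 in G2/SCR and 1.44 in G2/WT on the log2 scale. The G2/SCR differences were 2.56 for ADAM9, 3.07 for RHBDF1 and 3.16 for PLAT (adjusted p = 4.64e-10, 2.21e-08 and 1.64e-11, limma with Benjamini-Hochberg adjustment). ADAM17, the main HB-EGF sheddase, stood at 1920, 1861 and 1718 in G2 against 1063 to 1491 in the controls. Its difference of 0.33 in G2/SCR was below 1.5-fold, and that of 0.60 in G2/WT was called, but not without WT replicate 1 (0.41) or G2 replicate 1 (0.56). The 6 called genes were not the same in both comparisons, since ADAM17 was among them in G2/WT and TIMP3 in G2/SCR. TIMP3, an inhibitor of such proteases, stood at 1051, 1143 and 1128 in G2, at 925, 679 and 613 in SCR and at 1365 and 1702 in WT, so that G2 lay between the controls. It was 0.61 higher in G2/SCR on the log2 scale, a call lost without G2 replicate 2 (0.58), SCR replicate 2 (0.56) or SCR replicate 3 (0.48). In SCR/WT it was called lower, with -1.07, and in G2/WT its difference of -0.46 was not called.

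**Figure D4:**
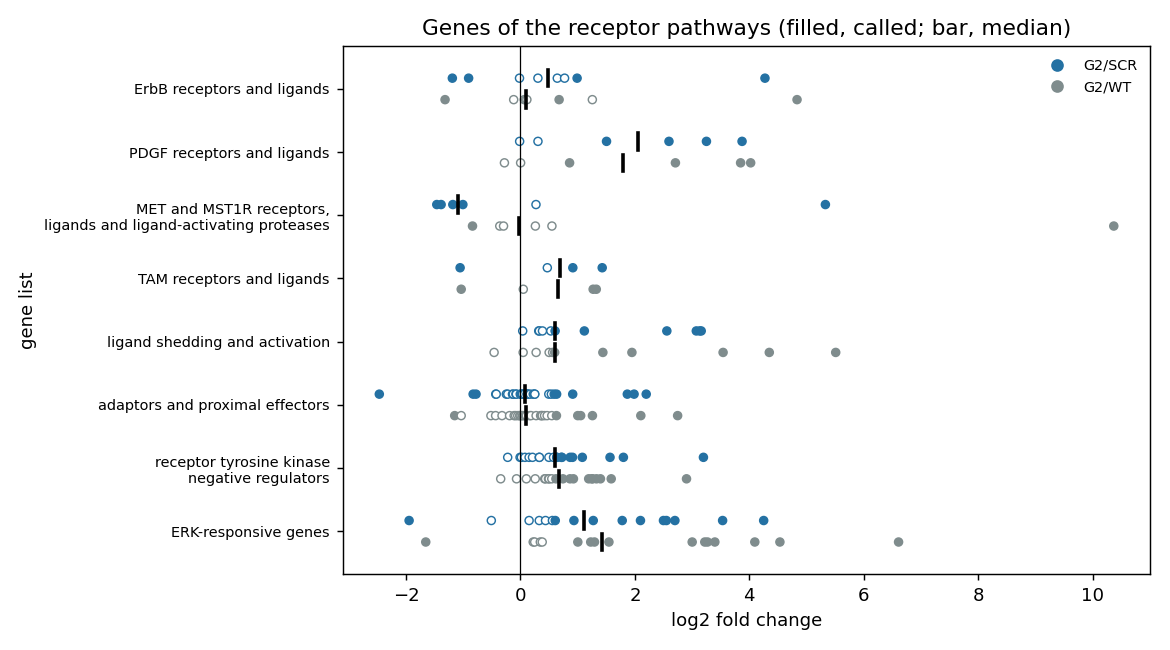
Log2 fold changes, by comparison (G2/SCR, G2/WT), for the tested genes of 8 receptor pathway lists, with filled points for called genes and black bars for list medians. The points of the PDGF list lie near 0 or above it in G2/SCR, those of the adaptors gather around 0, and the point beyond 10 is HGF, whose WT libraries are at the floor.

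Of 34 adaptors and proximal effectors, 31 were tested, and 6 were called higher and 3 lower in G2/SCR, and 6 higher and 1 lower in G2/WT. Most did not pass the test, and the medians were 0.07 and 0.10. The called shares were close to those of all genes given above, except for the lower calls in G2/WT. There 1 of 31 was called lower, against 12.2% of all genes. EPS8, a substrate of EGFR that acts on actin, stood at 2089, 2194 and 2043 normalized counts in G2, at 449, 476 and 451 in SCR and at 474 and 505 in WT. SHC4, an adaptor of the SHC family, stood at 254, 249.7 and 230.0 in G2, at 54.1, 62.9 and 66.5 in SCR and at 39.7 and 31.8 in WT. SRC, a kinase recruited by many receptors, moved the other way, at 2090, 2156 and 2124 in G2, 3937, 3442 and 3952 in SCR, and 4561 and 4870 in WT. The G2 libraries did not overlap the controls for these genes, while SCR and WT overlapped for EPS8. The log2 differences in G2/SCR were 2.20 for EPS8, 1.99 for SHC4, 0.59 for SHC1 and -0.83 for SRC (adjusted p = 3.18e-10, 1.66e-06, 1.23e-06 and 6.68e-07, limma with Benjamini-Hochberg adjustment). SHC1 lay close to the 1.5-fold limit, and its call was lost without G2 replicate 2 (0.57), SCR replicate 2 (0.58) or SCR replicate 3 (0.56).

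Of 22 negative regulators of receptor tyrosine kinases, 20 were tested, of which 10 were called higher against SCR and 11 against WT, with none lower in either. The medians were 0.61 and 0.68. In SCR/WT 3 were called higher and none lower. The Sprouty genes, inhibitors of ERK signalling, rose together. SPRY1 stood at 14254, 13782 and 14103 normalized counts in G2, at 1672, 1439 and 1487 in SCR and at 1949 and 1808 in WT. SPRY2 stood at 18732, 17834 and 18591 in G2, between 5051 and 5634 in SCR and at 7708 and 7627 in WT. The G2/SCR differences were 3.20 for SPRY1, 1.80 for SPRY2, 0.87 for SPRY4 and 1.57 for NEDD4, a ubiquitin ligase (adjusted p = 1.17e-11, 1.54e-10, 3.3e-08 and 2.19e-07, limma with Benjamini-Hochberg adjustment). ERRFI1, an inhibitor that binds the EGFR kinase, had a difference of 0.63 in G2/SCR, 1.25 in G2/WT and 0.61 in SCR/WT, called higher in each. With all libraries at the same total its G2/SCR difference was 0.54, below 1.5-fold. Its SCR/WT difference was 0.51 without WT replicate 1, also below 1.5-fold. The ubiquitin ligase gene CBL had one of 0.33 in G2/SCR, which was not called, and one of 0.62 in G2/WT, which was, though not without WT replicate 1 (0.37).

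All 16 ERK-responsive genes were tested, of which 10 were called higher and 1 lower in G2/SCR and 11 higher and 1 lower in G2/WT. The medians were 1.10 and 1.42, but 8 of these genes were also called higher and 1 lower in SCR/WT, where the median was 0.59. EGR1, an immediate early transcription factor, stood at 4811, 4659 and 4759 normalized counts in G2, at 749, 753 and 688 in SCR and at 539 and 447 in WT. PHLDA1 stood at 2500, 2579 and 2837 in G2, at 171, 136 and 111 in SCR and at 256 and 309.8 in WT. DUSP6, the phosphatase that inactivates ERK, stood between 29947 and 30964 in G2, 15494 and 16182 in SCR, and at 10808 and 10018 in WT. MYC was the member of the list that fell, at 2244, 2478 and 2506 in G2 against 9590, 9210 and 9052 in SCR and 7608 and 7564 in WT. The G2/SCR differences were 2.7 for EGR1, 4.25 for PHLDA1, 0.93 for DUSP6 and -1.95 for MYC (adjusted p = 1.37e-10, 3.26e-10, 1.52e-08 and 1.38e-10, limma with Benjamini-Hochberg adjustment). DUSP4, ETV4, ETV5, IER2 and JUNB were not called in G2/SCR. DUSP4, another ERK phosphatase, stood between 20788 and 22440 in G2, 29606 and 32144 in SCR, and at 11145 and 10344 in WT, so that G2 lay between the controls. Its log2 difference was -0.51 in G2/SCR, below 1.5-fold but called at the same total (-0.60), while it was called higher in G2/WT (1.00) and SCR/WT (1.51).

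**Figure D5:**
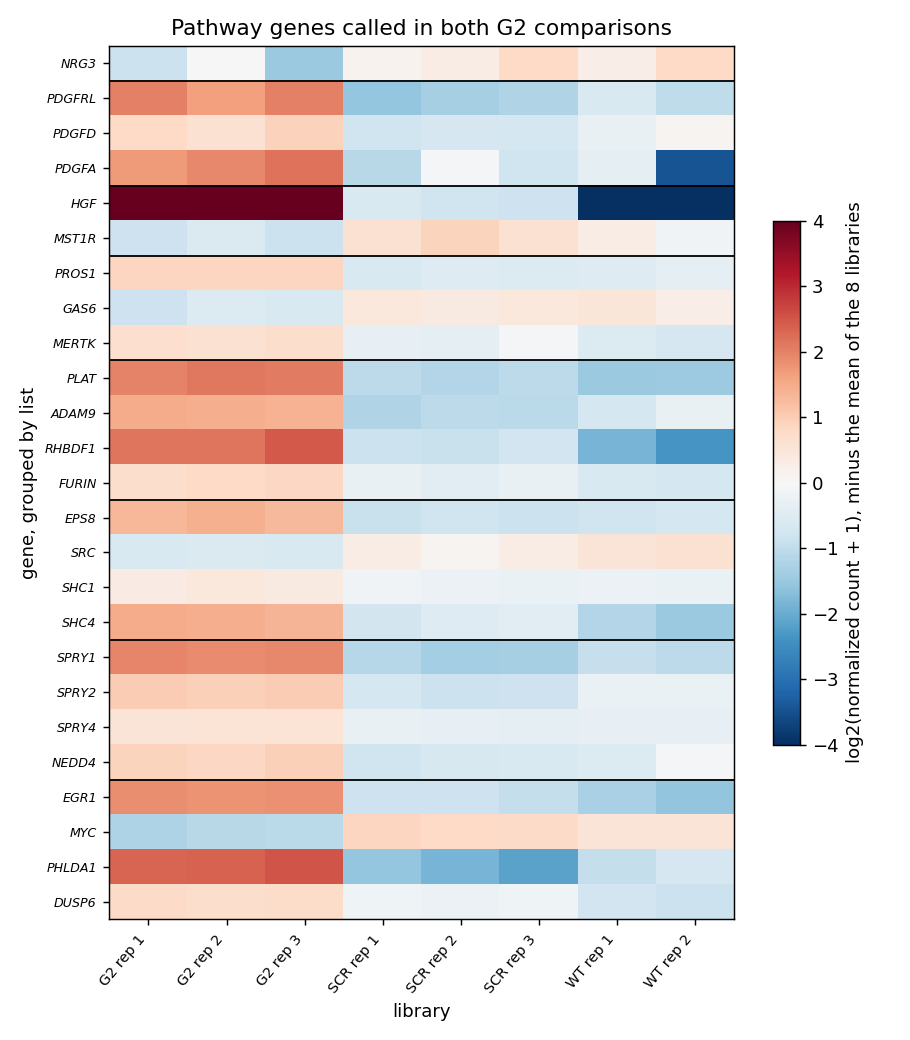
Log2(normalized count + 1), minus the mean over the 8 libraries, for the pathway genes named by rule, with libraries as columns, black lines between lists and colours limited to 4 in either direction, which only HGF exceeds. In each row the 3 G2 columns lie on one side of the 5 control columns, lower for NRG3, MST1R, GAS6, SRC and MYC. For NRG3 the G2 columns spread, and replicate 2 lies near SCR replicate 1.

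Markers of neuroblastoma cell states moved with these genes. Of 10 adrenergic markers, all tested, 1 was called higher and 7 lower in G2/SCR, and their summed level was 104489 to 116012 normalized counts in G2 against 172618 to 185128 in SCR and 185321 to 194612 in WT. Of 11 mesenchymal markers, 9 were tested and 8 called higher, none lower, with sums of 238460 to 243508 in G2, 110622 to 117946 in SCR and 80389 to 92658 in WT. Those sums are mostly VIM, FOSL1 is also in the ERK-responsive list, and TWIST2 and FN1 were at the floor in all libraries. TWIST1, the tested mesenchymal marker that was not called, went the other way. It stood at 21009, 20674 and 21631 in G2, at 27826, 26869 and 28525 in SCR and at 28189 and 25184 in WT. In SCR/WT 3 of the 9 tested mesenchymal markers were also called higher. Over all genes tested, 15.1% were called higher and 11.8% lower in G2/SCR. The adrenergic gene DBH was present in all lines, while TH reached at most 26.5. Of the Schwann cell markers, SOX10 and PMP2 were at 0 in all libraries and FOXD3 and CDH19 at the floor. Likewise PECAM1 (endothelial) and CD3E (immune) were at 0 and PTPRC at the floor. CD68, the only tested immune marker, was 3.41 higher in G2/SCR on the log2 scale (limma adjusted p = 3.34e-09). VWF, the only tested endothelial marker, stood at 59.3, 17.5 and 20.4 in G2 and at most 6.8 in the controls, and was called higher in both G2 comparisons, in G2/SCR with a limma adjusted p of 0.0502 and not without SCR replicate 1. Of the epithelial markers, 4 of 5 were tested, with none higher and 1 lower in G2/SCR, and their sums were 185 to 196 in G2, 171 to 188 in SCR and 118 to 155 in WT. In G2/WT 2 of them were called higher, KRT18 and KRT19, and none lower, with a list median of 1.04, and 3 were called higher in SCR/WT. The part of the cell state in the ligand values was not tested.

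The genes whose profile over the 8 libraries lay closest to each member, among 12588 named genes whose mean reached 100, are given by the root mean square difference of centred log2 values. MAB21L2 (0.19) and ITGA2 (0.23), a subunit of a collagen receptor, were closest to HBEGF. SLC38A6 (0.05) and DYNLT3 (0.08) were closest to NRG1, and TIGAR (0.11) and SPATA17 (0.12) to ERBB2. RNF150 and the joint entry SRCAP // TMEM265 (both 0.06) were closest to EGFR, MMS22L (0.05) and LRP8 (0.06) to PDGFRA, and ATP2A2 and SBF2-AS1 (both 0.04) to PDGFRB. The distance to HBEGF was larger than to the others, in step with its larger range over the libraries.

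The chromosomal surroundings of the members did not show their size of change. Neighbours were the 20 nearest tested genes of each member whose mean reached 100. Their median G2/SCR difference was -0.03 around HBEGF, 0.06 around PDGFC and 0.16 around NRG1, on the log2 scale. Of those neighbours, 2 were called higher and 1 lower around HBEGF, 5 higher and 2 lower around PDGFC, and 2 higher and 1 lower around NRG1. Over all genes tested, which include weaker ones, 15.1% were called higher and 11.8% lower. Around ERBB2 the median was -0.09. In G2/WT the medians were -0.11 around HBEGF, -0.22 around PDGFC and 0.04 around NRG1. There 2 neighbours were called higher and 0 lower around HBEGF, 5 and 3 around PDGFC, and 6 and 1 around NRG1. Over all genes tested, 17.7% were called higher and 12.2% lower in G2/WT. The part of the chromosomal region in the members' values was not tested.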

How the data were processed

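RNA was extracted from 3 lines of SH-SY5Y cells and made into 8 libraries with a stranded mRNA kit. Read pairs were aligned by the authors to hg38 using STAR, counted on the FAST DB annotation with featureCounts (Subread 1.5.0) and normalized them with DESeq2. The deposited signal is the normalized count per gene and library, not on a log scale and with replicates kept apart. The strand setting and the treatment of reads that match several genes are not given in the sources used here.

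Libraries were assigned to lines by their titles. Since the table holds normalized values, limma 3.58.1 in R 4.3.3 was used, with 1 fit over the 8 libraries, a mean per line, a pseudocount of 1, a trend on the mean and a filter that kept genes whose mean reached 10. The call rule was that of the study, a change of 1.5-fold or more with an unadjusted p not above 0.05, and adjusted p-values are Benjamini-Hochberg values over the 18947 genes tested. The study's filter against intergenic regions was not repeated. Values of a library were whole multiples of 1 step (100% whole within 0.05). For WT replicate 2 this share was not computed. The recovered counts of G2 and SCR were tested with edgeR 4.0.16, which called 5093 genes, and DESeq2 1.42.0, which called 4973, against 5088 with limma. Small recovered counts were mostly multiples of 3, so 9 recovered counts were taken as about 3 fragments, the floor. Floors cover counting error only. The scripts were tested on simulated data.

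The members, and the lists of pathway genes and markers, were chosen with earlier results of these data known. Besides the members and PRPF40B, the genes named are, per list, up to 4 with the lowest p against SCR among genes that both G2 comparisons called with 1 sign, and the 2 closest profiles of each member with a mean of at least 100. Other genes of a list (TGFA, ERBB4, TYRO3, ADAM17, TIMP3, ERRFI1, CBL, DUSP4, VWF and the like) were named after their values were seen. Promoter sequences are from RefSeq, where 7 of the 10 members had windows, 10 in all. PDGFC and ERBB3 had none, and NRG1 is not shown. Exon lengths are from GENCODE 44. Alternative pseudocounts, filters, scalings, call rules, tests, replicate blocks and left-out libraries were tried.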

Additional observations from a re-analysis of the deposited data

How the results depend on the processing

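The 4 calls among the members in G2/SCR stayed 4 with each library left out in turn, and those in G2/WT were 3 to 4. Only the SCR/WT count moved by more than 1.5 times: from 1 to 2 with all libraries at the same total, to 2 with the library number as a replicate block, and between 1 and 3 with each library left out (2 without SCR replicate 1, 3 without WT replicate 2), the cause of which was not tested. At the same total the median of all genes moved from -0.01 to -0.10 in G2/SCR, from 0.00 to 0.19 in G2/WT and from 0.01 to 0.29 in SCR/WT, and HBEGF was called in SCR/WT (0.83). ERBB3 in SCR/WT reached 1.81 without WT replicate 2, set against 1 WT library below the floor. None of the differences that changed sign was called in the fits reported. At the same total these were EGFR in G2/WT (0.067) and SCR/WT (0.17) and PDGFRA in SCR/WT (0.0105). With the library number as a block they were EGFR (0.12) and PDGFRA (0.0389) in G2/SCR and PDGFRB in G2/WT (-0.0196), which was -3.74e-05 with the title number as a block. With each library left out, EGFR ranged from -0.0532 to 0.026 in G2/SCR, from -0.46 to 0.22 in G2/WT and from -0.44 to 0.24 in SCR/WT. In the same runs ERBB2 ranged from -0.0148 to 0.11 in G2/WT, ERBB3 from -0.58 to 1.81 in SCR/WT, PDGFRA from -0.0582 to 0.0439 in G2/SCR, PDGFRB from -0.0907 to 0.0957 in G2/WT and PDGFC from -0.30 to 0.38 in SCR/WT.

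The deviations of libraries with the same replicate number in G2 and SCR had correlations of -0.01, -0.03 and 0.04. Those with the same library number had 0.05 (G2 replicate 2 with SCR replicate 1) and 0.04 (G2 replicate 3 with SCR replicate 3). All are small, so neither number is taken as a pair. With the title number as a replicate block 5059 genes were called in G2/SCR, and with the library number 5089, against 5088. The library number block also called ERBB3 in G2/WT (1.88) and HBEGF in SCR/WT (0.63). A minimum mean of 100 gave 3088, 3633 and 1723 calls in G2/SCR, G2/WT and SCR/WT, against 5088, 5657 and 3097, since fewer genes were tested, PDGFC not among them. Edge cases near the floor, ERBB3, MET and AXL, are limited by depth, and WT by its 2 libraries.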

Other observations

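Transcripts annotated inside the EGFR gene fell in G2 while EGFR itself was not called, and they were noticed after the values were seen. EGFR-AS1, an RNA antisense to EGFR at chr7:55179750-55188949, stood at 2.82, 0 and 0 normalized counts in G2, at 45.9, 30.03 and 38.5 in SCR and at 23.6 and 28.8 in WT. An entry without a symbol at chr7:55212912-55216855 (GSHG0039465) stood at 11.3, 13.1 and 12.9 in G2, at 61.2, 59.1 and 38.5 in SCR and at 52.1 and 74.5 in WT. The G2 libraries lay below all controls for both. The log2 difference in G2/SCR was -4.63 for EGFR-AS1 (adjusted p = 9.06e-05, limma with Benjamini-Hochberg adjustment), a value that depends on the pseudocount since its G2 libraries are at the floor, and -1.98 for GSHG0039465 (adjusted p = 0.000199). In SCR/WT neither was called. The strand setting of the counting is not given, so reads of EGFR and of its antisense partner cannot be told apart with certainty.

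Inside NRG1, the intronic transcript NRG1-IT1 (chr8:32026218-32139477) stood at 50.8, 19.7 and 30.1 in G2, at 8.16, 23.5 and 3.02 in SCR and at 12.4 and 25.8 in WT, so that the lines overlapped. It was called higher in G2/SCR (log2 1.74, limma adjusted p = 0.0418) and not in G2/WT (0.76).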
